A study of Homo sapiens with 3 samples.

Results

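AP-1 is a dimer of basic leucine zipper (bZIP) proteins, in which a JUN subunit pairs with a FOS subunit, with another JUN subunit or with a related bZIP protein, and binds short DNA elements in promoters and enhancers. FOS, FOSB, FOSL1 and FOSL2 form the FOS family and JUN, JUNB and JUND the JUN family. JDP2 is a bZIP partner of JUN that represses AP-1 activity, and BATF3 is a small bZIP partner of JUN known from dendritic cells. Several of these genes are immediate early genes, switched on within minutes by growth factors through the MAP kinases ERK, JNK and p38, and FOSL1 is an AP-1 subunit of many invasive carcinoma cells. The members were taken by gene name: every probe set whose single gene symbol was one of these 9 genes. All 9 genes were measured, by 20 of the 54675 probe sets, among 19775 genes in all, and no probe set joined a member to a second gene.

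The cells were SKOV-3, an established human ovarian cancer line, and they carried G9a shRNA1, G9a shRNA2 or a control hairpin that targets luciferase (Luc shRNA). G9a is the histone H3 lysine 9 methyltransferase encoded by EHMT2. All cells had been transduced with lentivirus, were selected with puromycin for 2 weeks and were used as stable lines, so that the arrays show cells long after G9a was depleted and not an acute response. There were 3 Affymetrix arrays, 1 for each condition, so there was no replicate error and no test, and every difference below is a difference between arrays. Each G9a shRNA array was set against the same Luc shRNA array, so an error of that 1 array enters both ratios.

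EHMT2 at its brightest probe set read 29.7 with G9a shRNA1 and 79.2 with G9a shRNA2, against 182 with Luc shRNA. Its second probe set read 23.9 with G9a shRNA1 and 16.4 with G9a shRNA2, against 27.6 with Luc shRNA, log2 ratios of -0.21 and -0.75. The dimmest read 2.03 with G9a shRNA1 and 8.49 with G9a shRNA2, against 2.05 with Luc shRNA. The size of the EHMT2 decrease, and its being larger with G9a shRNA1, thus rest on the brightest probe set. WIZ, a zinc finger partner of G9a, gave log2 ratios of 0.22 and 0.42 at its brightest probe set. Its dimmest, at 4.29 with Luc shRNA, gave -0.22 and 2.44, and those in between gave 0.40 and 0.56, and 0.57 and 0.49. Several epithelial markers read higher with the G9a shRNAs, as some AP-1 genes did. Of 9 epithelial and ovarian markers, 8 passed the filter described next, MUC16, named after its values were seen, being the exception, and 6 of the 8 were higher with both shRNAs (beside 44.0% of all genes past the filter), 1 lower with both and 1 on opposite sides. The adhesion molecule EPCAM read 2350 with G9a shRNA1 and 2226 with G9a shRNA2, against 1128 with Luc shRNA, 2.08-fold and 1.97-fold higher. The study already reported EPCAM as higher after G9a depletion in SKOV-3 cells, so its direction here is not independent evidence. The keratin KRT19, at lower signals, read 49.9 with G9a shRNA1 and 48.2 with G9a shRNA2, against 13.4 with Luc shRNA, 3.72-fold and 3.59-fold higher and the only one of the 8 past 2-fold with both, beside 2.57% of all genes. KRT8 gave log2 ratios of 0.36 and 0.70, and KRT7 gave 0.42 and 0.48 at its brightest probe set. A second KRT7 probe set gave 0.34 and 0.27, and the next, also past the filter, gave -0.87 and 0.10. The other KRT19 probe set lay under the filter on all arrays. The part of these markers in the ratios below was not tested. Of the leukocyte markers, 3 were measured and none read above 9.03 on any array, and of the 4 endothelial markers only PECAM1 passed, at 29.9 or less, with log2 ratios of 0.95 and 0.89 at its brightest probe set and -0.48 and -0.36 at another past the filter. The ratio of 3′ to 5′ signal of the β-actin controls on the array, a measure of RNA integrity, was 1.83 with G9a shRNA1 and 1.47 with G9a shRNA2, against 3.68 with Luc shRNA. For GAPDH the ratio lay between 1.12 and 1.15. The part of this difference between arrays in the ratios below was not tested.

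A probe set was kept where the highest of its 3 signals reached the median of all values, 12.0, and a stricter limit was set at the 75th percentile, 89.7. The SD of the log2 difference between the 2 G9a shRNA arrays was 0.25 over the 14682 probe sets past the stricter limit, 0.86 over those between the limits, and 1.77 over those under the median. This spread holds real differences between the shRNAs as well as noise. It holds no error of the Luc shRNA array, which enters every ratio below. It is thus given as a scale beside the ratios and cannot say which of them exceed noise. Of the 20 AP-1 probe sets, 13 lay past the stricter limit, 5 between the limits and 2 under the median. Signals of different probe sets are not comparable as amounts of mRNA, so only arrays are compared here, never genes.

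The promoters of these genes are shown because AP-1 and its bZIP relatives are known to bind such elements in promoters of FOS and JUN genes, JUN's own among them. RefSeq promoter windows of the GRCh38.p14 build, from 250 bases before to 50 after a start site, were given for 7 of the 9 members, in 9 windows of which 3 belong to JDP2. FOSL1 and BATF3 had no entry. Each line gives 30 bases 5′ to 3′ on the strand of the gene, with the motif found in capitals.
JUN, chr1:58784096-58784125, minus strand: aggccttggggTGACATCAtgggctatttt
JUND, chr19:18281804-18281833, minus strand: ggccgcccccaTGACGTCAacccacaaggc
FOS, chr14:75278752-75278781, plus strand: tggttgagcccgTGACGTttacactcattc
FOSB, chr19:45467924-45467953, plus strand: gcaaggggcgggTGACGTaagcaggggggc
FOSL2, chr2:28392780-28392809, plus strand: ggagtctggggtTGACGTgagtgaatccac
JDP2, chr14:75427913-75427942, plus strand: tccgtccccctcTGACGTctggagctggca

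The motifs were searched on both strands of 35116 such windows of all genes. TGACATCA, the variant in JUN, lay 67 bases upstream of the JUN start and occurred in 2.61% of all windows. The full palindrome TGACGTCA occurred in 1.85% of windows and, among the members, in JUND alone, 200 bases upstream. Its first 6 letters, TGACGT, which the palindrome also holds, occurred in 7.98% of windows and in windows of 5 members, FOS, FOSB, FOSL2, JDP2 and JUND. In FOS, FOSB and FOSL2 they started 64, 60 and 66 bases upstream. TGACTCA, the classical AP-1 element, occurred in 4.95% of windows and, among the members, in FOSL2 alone, downstream of the start. The CArG box, the element bound by serum response factor, occurred in 1.29% of windows and in no member's window. The windows end 250 bases upstream, so the search could not see a CArG box farther out, as in FOS, or in a member without a window. A match says that these letters are there, not that a factor bound them in SKOV-3 cells. Genes with and without the TGACGT letters were found both among the members that read higher with the G9a shRNAs and among those that did not.

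No AP-1 subunit was past 2-fold with both G9a shRNAs. Of the 9 members, 8 passed the filter at their brightest probe set, and 0 of these 8 were more than 2-fold higher and 0 more than 2-fold lower with both shRNAs. Over all 13192 genes past the filter, 2.57% were higher and 1.66% lower by this rule, so a count of 0 in 8 is near the background and is not a result about the family. None of these 8 was past 2-fold with even 1 shRNA at its brightest probe set. By a narrower rule, past 2-fold with at least 1 shRNA and on the same side with the other, 10.8% of all genes past the filter were called. Beside that share, 0 of 8 is again not a result about the family. The members fell into a part that read higher on both G9a shRNA arrays than on the Luc shRNA array (JUN, JUND, FOSL1 and FOS) and a part with opposite signs (FOSL2, JUNB, JDP2 and BATF3). Of all genes past the filter, 44.0% were higher with both shRNAs and 25.3% had opposite signs, so 4 and 4 of 8 are again counts without a distinct side. The largest log2 ratio among the 8 was 0.70, that of FOS with G9a shRNA1, and the lowest was -0.20. FOS passed the filter only through the G9a shRNA arrays, as its Luc shRNA signal lay under the median of all values. FOS could thus not have been counted as lower with both shRNAs, so its place among the 4 higher members carries little weight. Without FOS, the largest ratio was 0.64, that of JUN with G9a shRNA2.

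**Figure D1:**
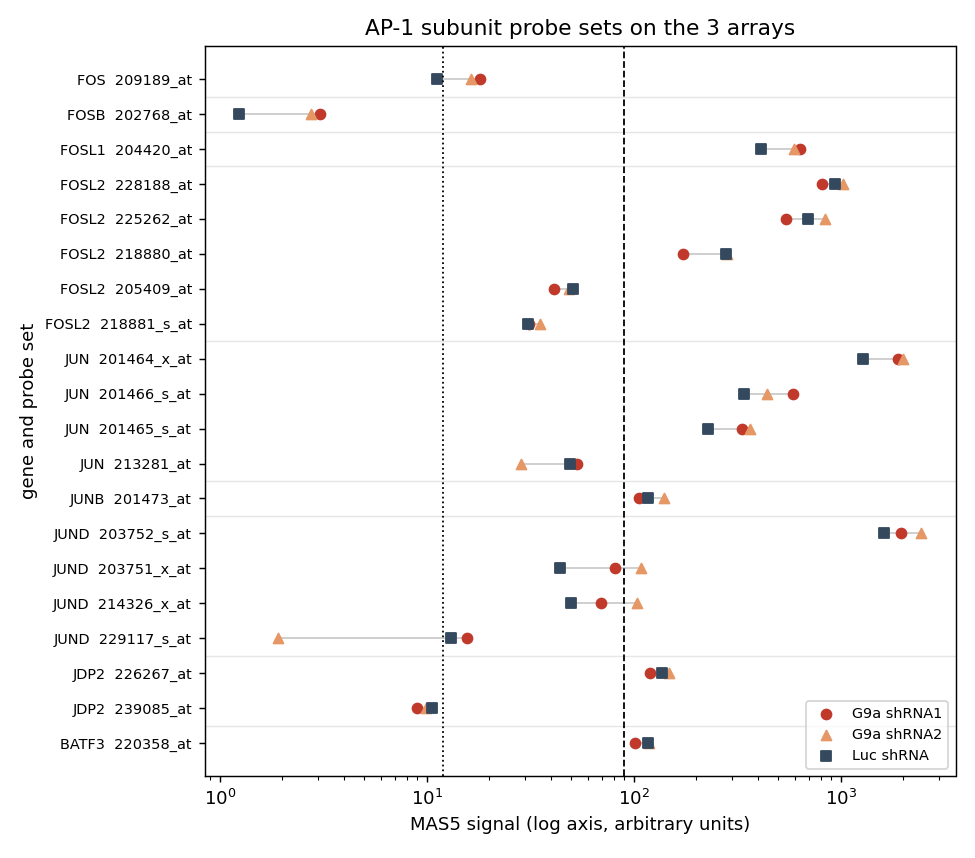
MAS5 signal (x axis, log scale) of the 20 AP-1 probe sets (rows, brightest first within a gene) with G9a shRNA1 (circles), G9a shRNA2 (triangles) and Luc shRNA (squares), 1 array each. The dotted line is the median of all values, 12.0, and the dashed line the 75th percentile, 89.7; the Luc shRNA array is the lowest of the 3 in 10 of the 20 probe sets.

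JUN, the founding subunit and the main target of JNK, read higher with both G9a shRNAs at 3 of its 4 probe sets. At the brightest, its signal was 1901 with G9a shRNA1 and 2004 with G9a shRNA2, against 1287 with Luc shRNA. These values give log2 ratios of 0.56 and 0.64, or 1.48-fold and 1.56-fold. The second probe set read 588 with G9a shRNA1 and 443 with G9a shRNA2, against 342 with Luc shRNA (log2 ratios of 0.78 and 0.37). The next read 333 with G9a shRNA1 and 367 with G9a shRNA2, against 229 with Luc shRNA (0.54 and 0.68). On all 3 the Luc shRNA array was the lowest, and every ratio was larger than the SD of 0.25 between the G9a shRNA arrays at this signal. That SD holds no error of the Luc shRNA array, which all of these ratios share. The fourth and dimmest probe set read 53.2 with G9a shRNA1 and 28.5 with G9a shRNA2, against 49.5 with Luc shRNA. It did not follow the other 3, with log2 ratios of 0.10 and -0.80, and lies in the signal range where the G9a shRNA arrays themselves differ by an SD of 0.86. The brightest JUN probe set carries the suffix _x_at, given by the maker to probe sets that can also bind other transcripts, while the next 2 do not. All 4 report on the same gene and are not replicates. In RNA from a whole culture, more RNA per cell and more cells that express the gene cannot be told apart. Of the 8348 genes past the 75th percentile, 4.23% had both log2 ratios at or above the smaller of those of the brightest JUN probe set, so that a shift of this size was not rare among all genes.

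JUND, the JUN subunit that is expressed steadily and is the least responsive to growth factors, was also higher with both shRNAs at its brightest probe set. The signal was 1956 with G9a shRNA1 and 2457 with G9a shRNA2, against 1623 with Luc shRNA. The log2 ratios were 0.27 and 0.60, so the ratio with G9a shRNA1 was about as large as the SD of 0.25 between the G9a shRNA arrays. The next 2 probe sets, both with the suffix _x_at, gave larger ratios from lower signals. The first of these read 80.9 with G9a shRNA1 and 108 with G9a shRNA2, against 44.2 with Luc shRNA, log2 ratios of 0.87 and 1.29. The other read 69.9 with G9a shRNA1 and 103 with G9a shRNA2, against 49.6 with Luc shRNA, log2 ratios of 0.49 and 1.06. These were past 2-fold with G9a shRNA2 alone. The fourth JUND probe set read 15.6 with G9a shRNA1 and 1.91 with G9a shRNA2, against 13.1 with Luc shRNA, and went the other way with G9a shRNA2, at a signal too near the background to give a fold. Of all genes past the 75th percentile, 17.2% had both ratios at or above the smaller of those of the brightest JUND probe set.

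JUNB, the JUN subunit that often opposes JUN in growth control, had 1 probe set. Its signal was 107 with G9a shRNA1 and 140 with G9a shRNA2, against 117 with Luc shRNA. The Luc shRNA array lay between the G9a shRNA arrays, and the log2 ratios were -0.14 and 0.25. Neither was larger in size than the SD of 0.25 between the G9a shRNA arrays.

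FOSL1, which encodes FRA-1, was the FOS family gene with both a signal far over the background and a higher value with both shRNAs. Its 1 probe set read 633 with G9a shRNA1 and 594 with G9a shRNA2, against 415 with Luc shRNA. The log2 ratios were 0.61 and 0.52, or 1.53-fold and 1.43-fold. The 2 G9a shRNA arrays differed by 0.09, less than either differed from the Luc shRNA array. Of all genes past the 75th percentile, 5.17% had both ratios at or above the smaller of these.

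FOSL2, which encodes FRA-2, had 5 probe sets and no common direction against the control. The brightest read 814 with G9a shRNA1 and 1025 with G9a shRNA2, against 938 with Luc shRNA, log2 ratios of -0.20 and 0.13. The second read 546 with G9a shRNA1 and 839 with G9a shRNA2, against 698 with Luc shRNA. The next read 173 with G9a shRNA1 and 284 with G9a shRNA2, against 279 with Luc shRNA. On these 3 the Luc shRNA array lay between the G9a shRNA arrays, and their log2 ratios with G9a shRNA1 reached -0.69. The remaining 2, at signals between 30.8 and 50.8, gave log2 ratios of -0.30 and -0.07, and of 0.02 and 0.19. At the 2 probe sets after the brightest, G9a shRNA1 gave log2 ratios to the control of -0.35 and -0.69, larger in size than the SD of 0.25 between the G9a shRNA arrays. G9a shRNA2 gave 0.27 and 0.02 there. On all 5 probe sets G9a shRNA1 read below G9a shRNA2, by 0.18 to 0.72 on the log2 scale. Over all genes past the 75th percentile, the median log2 ratio was 0.00 with G9a shRNA1 and 0.13 with G9a shRNA2, so a part of this gap was shared by genes in general.

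FOS, the prototype immediate early gene, and FOSB, its close relative, were at or near the background. The FOS probe set read 18.2 with G9a shRNA1 and 16.3 with G9a shRNA2, against 11.2 with Luc shRNA. Its log2 ratios were 0.70 and 0.54, smaller than the SD of 0.86 between the G9a shRNA arrays at such signals. The Luc shRNA value lay under the median of all values, so FOS passed the filter only through the arrays on which it was higher. Of the 4844 genes between the median and the 75th percentile, 13.3% had both ratios at or above the smaller of the FOS ratios. FOSB read 3.07 with G9a shRNA1 and 2.75 with G9a shRNA2, against 1.24 with Luc shRNA. All 3 values were under the filter, where the SD between the G9a shRNA arrays was 1.77, and no fold is given.

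JDP2 and BATF3 passed the stricter signal limit at their brightest probe sets and lay close to the control. JDP2 read 120 with G9a shRNA1 and 149 with G9a shRNA2, against 137 with Luc shRNA, log2 ratios of -0.20 and 0.12. Its second probe set was under the filter on all arrays, between 9.01 and 10.6. BATF3 read 102 with G9a shRNA1 and 119 with G9a shRNA2, against 117 with Luc shRNA, log2 ratios of -0.20 and 0.02. For both genes the Luc shRNA array lay between the G9a shRNA arrays, and the ratios were smaller than the SD of 0.25.

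**Figure D2:**
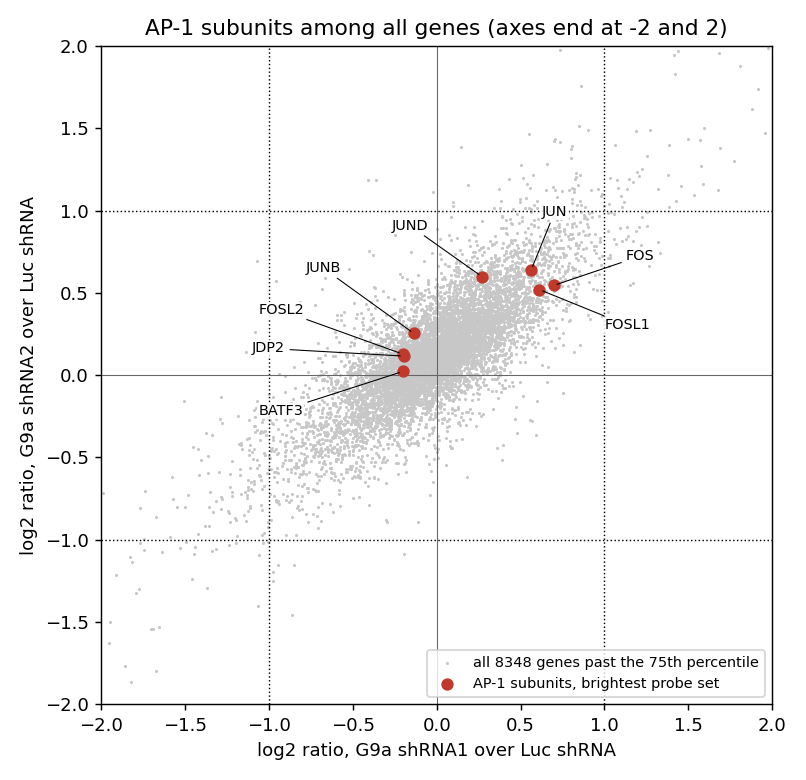
G9a shRNA1 (x axis) against G9a shRNA2 (y axis), each as a log2 ratio to Luc shRNA, for the 8 AP-1 subunits past the filter (red, brightest probe set) over the 8348 genes past the 75th percentile (grey, 22 of them beyond the axes). Dotted lines mark 2-fold. JUN, FOSL1, FOS and JUND lie at the upper right within them. BATF3, JDP2, FOSL2 and JUNB lie near 0 at the left. FOS, at 18.2 or less, lies under the 75th percentile and is not among the grey genes. At its signal the SD between the G9a shRNA arrays was 0.86, not 0.25.

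The median over all 9 members of the mean of the 2 log2 ratios was 0.43, where the median over all 19775 genes was 0.04. The median member was JUND, and FOSB, at the background, counted among the 5 higher members. With signals under 12.0 raised to it, FOSB gave a ratio of 0 and the median of the 9 was 0.058, so the median rests on a gene whose values carry no fold. The median log2 ratio of all genes past the filter with G9a shRNA2 was 0.12 as deposited and 0.01 after quantile normalization. After it, JUN gave 0.60 and 0.57, FOSL1 gave 0.64 and 0.40, and JUND gave 0.31 and 0.54. JDP2 and BATF3 then gave negative ratios with both shRNAs, -0.21 and -0.04 for JDP2 and -0.22 and -0.13 for BATF3, and neither passed 2-fold. With the log2 signals of all probe sets of a gene averaged, JUN gave 0.50 and 0.22 and JUND gave 0.47 and 0.04, so the size of both ratios with G9a shRNA2 depends on the probe sets used.

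The other bZIP genes that can pair with JUN or FOS subunits held 2 genes past 2-fold with both G9a shRNAs. Of 16 listed, 13 were measured and 8 passed the filter, of which 2 were higher (beside 2.57% of all genes past the filter), 0 lower and 6 past 2-fold on neither side with both. This list, too, was drawn up with earlier results of these data known, so the count is not independent evidence about the partners. Listed genes not counted as measured, here and in the lists below, had no probe set with a single gene symbol in the annotation used. ATF3, a stress-induced partner of JUN, was one of the 2 higher genes. It read 457 with G9a shRNA1 and 428 with G9a shRNA2, against 152 with Luc shRNA, 3.02-fold and 2.83-fold higher. Its second probe set gave log2 ratios of 1.68 and 1.56, and its dimmest, where Luc shRNA read 6.61, gave 1.46 and 0.28. MAFF, a small MAF protein without a transactivation domain, was the other. It read 753 with G9a shRNA1 and 663 with G9a shRNA2, against 302 with Luc shRNA, 2.49-fold and 2.19-fold higher, and its second probe set gave 1.72 and 1.45 on the log2 scale. The related MAFG read 451 with G9a shRNA1 and 496 with G9a shRNA2, against 330 with Luc shRNA, not past 2-fold. ATF2, a JNK and p38 substrate that pairs with JUN, read 496 with G9a shRNA1 and 413 with G9a shRNA2, against 659 with Luc shRNA, log2 ratios of -0.41 and -0.68. A second ATF2 probe set, at 40.2 to 46.4, gave 0.20 and 0.12. The median over the 13 measured partners was 0.02, and 0.53 with all probe sets of a gene averaged. The value of 0.53 is that of NFE2, whose 1 probe set lay under the filter on all arrays, at 6.08 to 9.13.

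Kinases of the ERK, JNK and p38 routes were not past 2-fold with both shRNAs in either direction. Of 20 listed, 16 were measured and all 16 passed the filter, with 0 higher and 0 lower, and their median was 0.15. Beside 2.57% higher and 1.66% lower of all genes, 0 of 16 is near the background. At their brightest probe sets, the kinases furthest on one side with both shRNAs were RPS6KA5 and RPS6KA4, the nuclear kinases MSK1 and MSK2 that phosphorylate CREB and histone H3. RPS6KA5 read 106 with G9a shRNA1 and 97.7 with G9a shRNA2, against 65.9 with Luc shRNA, log2 ratios of 0.69 and 0.57. Its second probe set, at 50.5 with Luc shRNA, gave opposite signs, 0.59 and -0.13. RPS6KA4 read 113 with G9a shRNA1 and 138 with G9a shRNA2, against 79.0 with Luc shRNA, log2 ratios of 0.52 and 0.81. Its only other probe set went the opposite way, past 2-fold lower with both, and read 1.45 with G9a shRNA1 and 2.42 with G9a shRNA2, against 16.7 with Luc shRNA, the one value over the median of all values. The direction of neither kinase was thus shared by all of its probe sets past the filter. MAPK10, the JNK3 gene, stood near the background, with log2 ratios of 0.49 and 0.57 from a Luc shRNA signal of 12.6. MAP3K1, a kinase upstream of JNK, gave 0.19 and 0.35.

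Of 15 activators of FOS and JUN transcription, 14 were measured and 13 passed the filter, and none was past 2-fold with both shRNAs at its brightest probe set, a count near the background of 2.57% higher and 1.66% lower among all genes. The nearest was SRF, serum response factor, which drives FOS through the CArG box. SRF read 89.0 with G9a shRNA1 and 103 with G9a shRNA2, against 51.7 with Luc shRNA, 1.72-fold and 1.98-fold higher. A second SRF probe set read 23.1 with G9a shRNA1 and 24.7 with G9a shRNA2, against 4.49 with Luc shRNA, with the Luc shRNA value under the median of all values. CREM, a CREB relative with activator and repressor isoforms, gave log2 ratios of -0.62 and -0.47 at its brightest probe set but 0.30 and 0.21 at the second. Over all 6 CREM probe sets, 4 were lower with both shRNAs and 2 higher. The brightest CREB1 probe set gave -0.28 and -0.20, yet the 7 for this gene, all past the filter, had no common direction, with 2 lower with both shRNAs, 3 higher with both and 2 on opposite sides. The highest of them gave 0.25 and 0.76. MRTFB, a coactivator of SRF, gave -0.27 and -0.20 at its 1 probe set past the filter. The median over the list was 0.07.

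Of 12 regulators of AP-1 protein or mRNA, 11 were measured and passed the filter, with 0 past 2-fold with both shRNAs, near the background of 2.57% higher and 1.66% lower among all genes, and a median of 0.05. ZFP36, which binds AU-rich elements and speeds decay of early gene mRNAs, read 138 with G9a shRNA1 and 134 with G9a shRNA2, against 77.7 with Luc shRNA, 1.78-fold and 1.73-fold higher. DET1, a part of the ubiquitin ligase that degrades JUN, read 86.6 with G9a shRNA1 and 83.9 with G9a shRNA2, against 57.1 with Luc shRNA. Its log2 ratios were 0.60 and 0.55. KHSRP, another RNA-binding protein of AU-rich decay, gave -0.28 and -0.30 at its brightest probe set. Its other 3 did not share a direction, with -0.26 and 0.19 at the second, 0.56 and 1.18 at the next, where Luc shRNA read 14.5, and -0.24 and -0.11 at the dimmest. COPS5, a JUN coactivator of the COP9 signalosome, gave 0.34 and 0.21.

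Genes reported as AP-1 targets, many of which also answer to other factors such as NF-κB, held 5 genes past 2-fold with both shRNAs. Of 29 listed, 28 were measured and 21 passed the filter, of which 5 were past 2-fold higher with both shRNAs, 0 lower and 16 neither, beside 2.57% higher among all genes. The list was drawn up with earlier results of these data known, so this count is not independent evidence about AP-1 targets. DUSP1, a phosphatase of the MAP kinases, read 2329 with G9a shRNA1 and 2083 with G9a shRNA2, against 529 with Luc shRNA. The study chose DUSP1 on these samples, so its direction is not independent evidence. Its other 2 probe sets lay near the background and differed. One read 3.08 with G9a shRNA1 and 18.2 with G9a shRNA2, against 17.8 with Luc shRNA, and the other, with the suffix _x_at, read 11.8 with G9a shRNA1 and 17.3 with G9a shRNA2, against 2.03 with Luc shRNA. IL6, an inflammatory cytokine, read 139 with G9a shRNA1 and 93.5 with G9a shRNA2, against 32.6 with Luc shRNA, 4.26-fold and 2.87-fold higher. CXCL8, a neutrophil chemokine named here after its values were seen, read 138 with G9a shRNA1 and 107 with G9a shRNA2, against 52.8 with Luc shRNA, 2.61-fold and 2.03-fold higher. This probe set carries the suffix _x_at. The second, without it, gave log2 ratios of 1.26 and 0.52, so CXCL8 was not past 2-fold with both shRNAs there, and without _x_at probe sets 4 targets were past 2-fold. The matrix proteases MMP1 and MMP3 had Luc shRNA signals of 7.05 and 6.41, under the median of all values, and passed the filter only through the G9a shRNA arrays. MMP1 read 32.7 with G9a shRNA1 and 27.2 with G9a shRNA2. MMP3 read 37.4 with G9a shRNA1 and 13.1 with G9a shRNA2. The median over the 28 measured targets was 0.14, with 11 of the 21 past the filter higher with both shRNAs, 6 lower with both and 4 on opposite sides. Of all genes past the filter, 44.0% were higher with both, 30.8% lower with both and 25.3% on opposite sides, so these counts are near the shares of all genes.

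**Figure D3:**
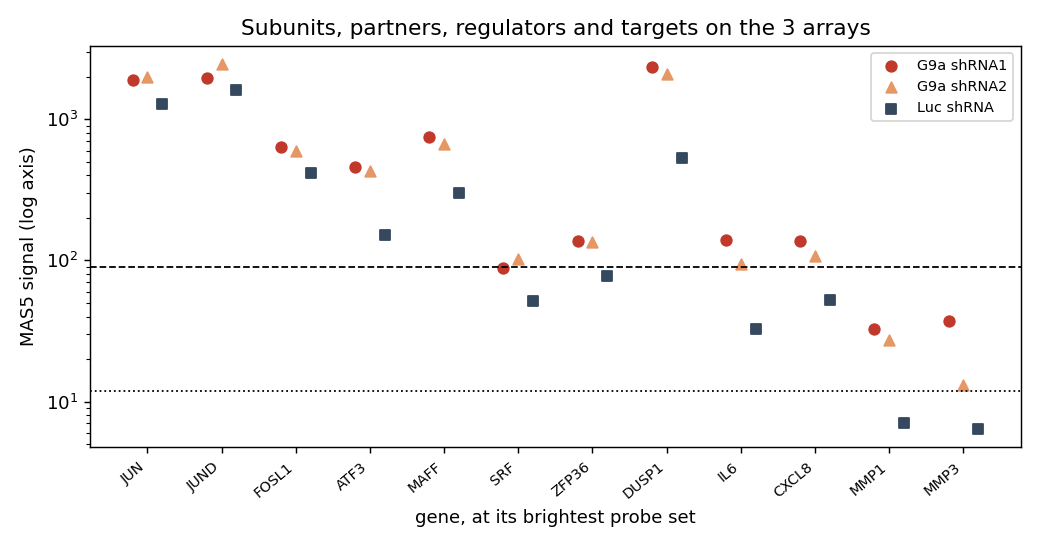
MAS5 signal (y axis, log scale) with G9a shRNA1 (circles), G9a shRNA2 (triangles) and Luc shRNA (squares) for 3 subunits, 2 bZIP partners, SRF, ZFP36 and 5 target genes, at the brightest probe set, 1 array each. All 12 genes were picked from those higher with both G9a shRNAs, so the Luc shRNA array is the lowest for each by choice. Members with opposite signs and genes that were lower are not shown. The gaps are narrowest for JUN, JUND and FOSL1. Dotted and dashed lines are 12.0 and 89.7, and signals of different genes are not comparable.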

How the data were processed

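SKOV-3 cells with G9a shRNA1, G9a shRNA2 or Luc shRNA were measured on 1 Affymetrix U133 Plus 2.0 array each. The deposited values are intensity values, MAS5 signals on a linear scale made by the authors, with version, settings and scaling target not given in the sources used here. They were used as deposited, as log2 ratios of each G9a shRNA array to the Luc shRNA array. Of 54675 probe sets, 41097 had 1 gene symbol in the platform annotation, 1801 had several and 11777 none, and 54 of those with 1 symbol kept it because their identifier had no match in the gene table. For each gene the probe set whose log2 signals had the highest mean stood for it. The threshold was 2-fold, on the same side with both shRNAs, as the methods give no test, and 1 array per condition and the signal over background limit the precision. No p-value was computed. The members and gene lists were chosen with earlier results of these data known. Named are the 9 members with all probe sets, EHMT2, and up to 4 genes of each other list with the largest smaller change on 1 side. The nearest genes by pattern were to be named for members past 2-fold with both shRNAs, and there were none. Values were computed with Python 3.11.15, numpy 2.4.6, pandas 2.3.3 and matplotlib 3.10.9, and the calling rule was tested on simulated data.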

Additional observations from a re-analysis of the deposited data

How the results depend on the processing

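No paired analysis was possible because each condition has 1 array. The count of AP-1 subunits past 2-fold with both G9a shRNAs was 0 higher and 0 lower, and the same counts came with the stricter filter, the filter applied to the mean signal, signals raised to the median, quantile normalization, arrays centred on their medians, thresholds of 1.5-fold and 3-fold, the mean of all probe sets, the probe set with the largest single signal, either shRNA alone, at least 1 shRNA past 2-fold and, added after the data were seen, without _x_at probe sets. With no filter, 1 member was higher, FOSB, at signals under the median. The median over the 9 members was 0.43, and 0.058 with signals raised to the median, 0.26 with the mean of all probe sets, 0.27 from the G9a shRNA1 array only and 0.52 from the G9a shRNA2 array only. Of the other lists, the targets past 2-fold higher numbered 5, and 4 with signals raised to the median and with quantile normalization. They numbered 3 with the stricter filter, DUSP1, IL6 and CXCL8. Of these, IL6 and CXCL8 read 32.6 and 52.8 with Luc shRNA, under 89.7, and passed the stricter filter only through the G9a shRNA arrays. The targets numbered 3 with the mean of all probe sets, 2 at 3-fold and 4 without _x_at probe sets, where CXCL8 was lost. They numbered 6 with no filter, at 1.5-fold, with G9a shRNA1 alone and with at least 1 shRNA past 2-fold. The partners higher numbered 2, and 0 at 3-fold. With the mean of all probe sets, 1 kinase, RPS6KA5, and 1 activator, SRF, were past 2-fold higher. For RPS6KA5 this came from a probe set under the median on all arrays, with log2 ratios of 4.02 and 3.74, while its 2 probe sets past the filter gave 0.69 and 0.57, and 0.59 and -0.13. For SRF it came with a second probe set whose Luc shRNA signal, 4.49, lay under the median. The count over all genes was 339 higher and 219 lower, 51 and 39 with the stricter filter, 126 and 96 with the floor, 1212 and 956 with no filter, and 297 and 279 with quantile normalization. Median centring gave 302 and 250, the 1.5-fold threshold 902 and 630, and the 3-fold threshold 150 and 71. At least 1 shRNA past 2-fold gave 694 and 737. The mean of all probe sets gave 362 and 166, and leaving out _x_at probe sets gave 329 and 210. Genes past the filter numbered 13192, and 8348 with the stricter filter, 11836 with the mean of all probe sets and 12782 without _x_at probe sets. Values near the background, FOS and FOSB among them, limit what these arrays can show.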
